A study of Homo sapiens with 4 samples.

Results

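The RGS genes (regulators of G-protein signalling) described here are RGS1, RGS2, RGS3, RGS4, RGS5, RGS10, RGS16, RGS17, RGS19 and RGS20, 10 of the 17240 named genes with a probe on the arrays. Their probes were found through the accession that the array files give each probe, which gave 14 probes: 4 genes have several probes and 6 have 1. The genes were listed with their ratios of knockdown over control already known, so those ratios are given as a description, without a test. RNA came from A2780s cells, an epithelial ovarian cancer (EOC) line described in the labels as an ovarian adenocarcinoma. The study asked how gene expression in these cells changes when GALNT3, an enzyme that starts mucin-type O-glycosylation, is suppressed. Each of the knockdown clones, sh-G1 and sh-G2, stably carries an shRNA against GALNT3 in a pSilencer puro plasmid, and the ctrl clone was mock-transfected with the empty plasmid. All 3 lines are single clones selected in puromycin, both knockdown clones carry the same shRNA, and the ctrl clone was on all 4 arrays. Each knockdown clone was compared with ctrl on 2 arrays, on replicate 1 with the knockdown RNA in Cy5 and the ctrl RNA in Cy3, and on replicate 2 with the dyes exchanged. The labels write the line of the ctrl clone as A27803 in places and as A2780s in others, and it was taken as the same line.

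RGS proteins end signals from G-protein-coupled receptors. An activated receptor loads GTP onto a G alpha subunit, and the RGS domain speeds the hydrolysis of that GTP, so that the alpha subunit goes back to the beta-gamma dimer and both stop acting on their effectors. The R4 subfamily, mostly small proteins with little beyond the RGS domain, provides 6 of the 10 genes, the RZ subfamily 3 (RGS17, RGS19 and RGS20) and the R12 subfamily 1 (RGS10). In ovarian cancer cells RGS proteins are known for limiting the response to lysophosphatidic acid, a growth-promoting phospholipid found in ascites.

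Of the 10 genes, RGS2 and RGS5 had the probes that differed most from ctrl, so the 200 bases before the start of each are shown. They were taken from the RefSeq promoter table of assembly GRCh38.p14, 5′ to 3′ on the strand of the gene, and both genes lie on chromosome 1. The RGS2 window is chr1:192808839-192809038 on the plus strand. The RGS5 window is chr1:163321736-163321935 on the minus strand, before the outermost of the 2 starts in that table. Capitals mark 4 motifs searched on both strands: the core of the cAMP response element (TGACG), the TATA box (TATAAA), the CCAAT box (CCAAT) and the GC box (GGGCGG).
RGS2: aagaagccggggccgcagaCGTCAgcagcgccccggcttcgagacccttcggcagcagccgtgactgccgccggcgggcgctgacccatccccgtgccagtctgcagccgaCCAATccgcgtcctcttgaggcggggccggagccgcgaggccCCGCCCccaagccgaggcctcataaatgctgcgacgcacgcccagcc
RGS5: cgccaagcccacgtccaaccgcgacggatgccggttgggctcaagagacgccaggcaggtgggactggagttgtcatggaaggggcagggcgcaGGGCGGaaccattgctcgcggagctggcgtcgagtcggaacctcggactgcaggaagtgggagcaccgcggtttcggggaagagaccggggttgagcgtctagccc
In the RGS2 window a CGTCA, the cAMP response element core read on the other strand, began 181 bases before the start, a CCAAT began 89 bases before it, and a CCGCCC, the GC box on the other strand, began 47 bases before it. The RGS5 window held 1 match, a GGGCGG that began 106 bases before the start. Of 35116 windows of this length in the table, 18.4% held the cAMP response element core, 28.0% the CCAAT box, 40.1% the GC box and 8.59% the TATA box. G and C made up 73.0% of the RGS2 window and 67.0% of the RGS5 window, against a median of 59.0% over all windows. These matches describe letters only, and the arrays did not measure binding at either promoter.

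Each array carried 43376 spots that are not controls, and between 88.1% and 97.0% of them were well above background in the knockdown channel and between 95.9% and 97.6% in the ctrl channel. All arrays lay on 1 slide. The targeted gene, GALNT3, had 1 probe (A_24_P114249) with log2 ratios of knockdown over ctrl of -0.09 and 0.08 for sh-G1 and 0.12 and -0.14 for sh-G2. It was well above background in 2 of 4 knockdown channels and 4 of 4 ctrl channels, and 0.41% of the probes kept were dimmer. The array therefore gave no lower GALNT3 signal in the knockdown clones, at a brightness near the floor of the array. So dim a probe cannot decide whether GALNT3 was suppressed. In the paper, clones were chosen by PCR of the transcript and blots of the protein. It reports significantly less GALNT3 in both sh-G1 and sh-G2 than in ctrl. Of the probes kept, the median absolute difference between the dye-swapped arrays of a clone was 0.22 on the log2 scale for sh-G1 and 0.28 for sh-G2. This gap holds array noise and the dye together, since each orientation was run on 1 array a clone. Averaged over the clones, the median absolute log2 ratio of the probes kept was 0.06, and its 90th percentile was 0.24.

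RGS2 was higher and RGS5 was lower in both knockdown clones on every array, and the other 8 genes had no probe 1.5-fold away from ctrl in the same direction on all 4 arrays. The log2 ratios that this count rests on are plotted by array. The 1 RGS2 probe was 1 of 13 kept RGS probes at least 1.5-fold higher on all 4 arrays (a log2 ratio of 0.58), where 0.23% of all 39151 kept probes were. Both RGS5 probes were at least 1.5-fold lower on all 4 arrays, where 0.92% of all kept probes were. The listed genes were chosen on these ratios, so these shares are set side by side only.

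**Figure D1:**
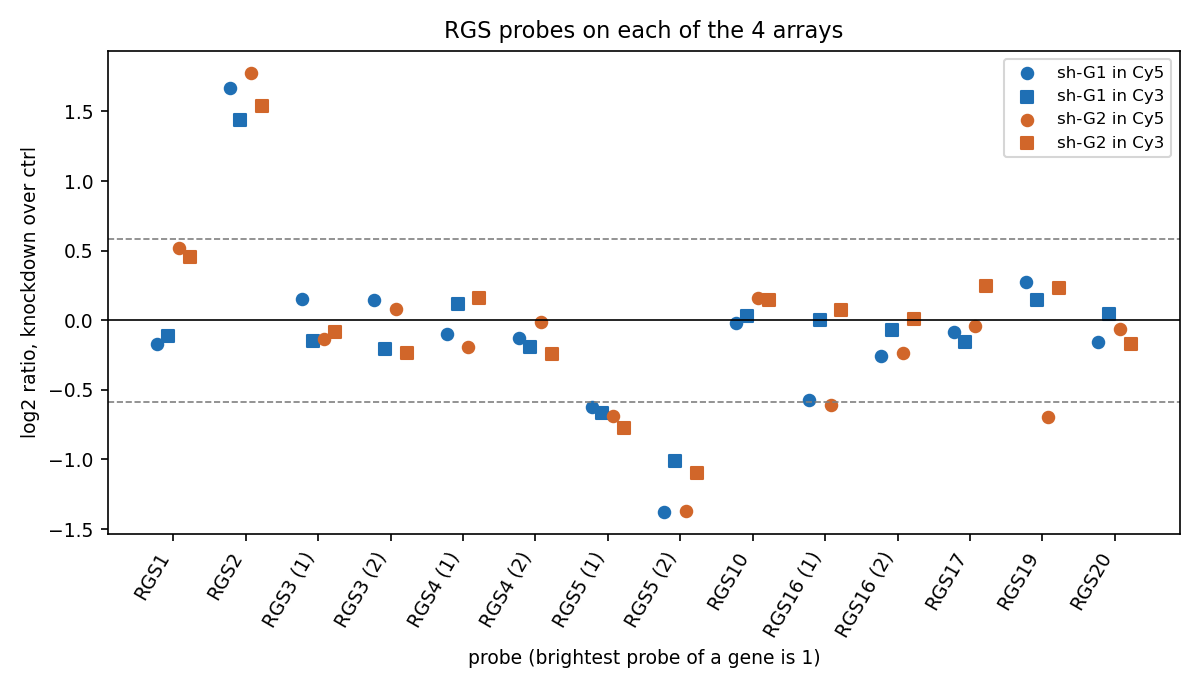
Log2 ratio of knockdown over ctrl (vertical axis) for the 14 RGS probes (horizontal axis; a number in brackets tells probes of 1 gene apart), with 1 point for each of the 4 arrays. Circles are arrays with the knockdown RNA in Cy5, squares those with it in Cy3, and the dashed lines mark a 1.5-fold change; the RGS2 points lie between 1.44 and 1.78, and all 8 RGS5 points lie below the lower dashed line.

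RGS2 is an R4 protein that acts chiefly on G alpha q, and its gene is known to be switched on within hours by signals that raise cAMP or calcium. Its probe (A_23_P114947) read 13.16, 13.22, 13.15 and 13.26 in the ctrl channels of the 4 arrays, in normalised log2 intensity. The knockdown channels read 14.83 and 14.66 in sh-G1 and 14.93 and 14.80 in sh-G2. Every knockdown value lay above every ctrl value, and the ranges were more than 1 log2 unit apart. The share of all kept probes that separate in this way, here or for the genes below, was not counted. The log2 ratios were 1.67 and 1.44 for sh-G1 and 1.78 and 1.54 for sh-G2, with clone means of 1.55 and 1.66. The mean of the clones was 1.61 ± 0.07 (SD, n = 2 clones), a 3.04-fold higher signal. On both clones the array with the knockdown RNA in Cy5 gave the higher ratio, by 0.23 and 0.24, a gap close to that of a typical probe. Over the whole array 26 of the kept probes had a higher mean.

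RGS5 is an R4 protein that acts on G alpha i and G alpha q, and in tissues its transcript is known above all as a marker of pericytes, the cells around small vessels. Its brighter probe (A_23_P51518) read 9.81, 9.79, 9.84 and 9.83 in the ctrl channels and 9.19, 9.13, 9.15 and 9.05 in the knockdown channels, sh-G1 first. The groups did not overlap, and the SD of the 4 ctrl readings, repeats of the same clone, was 0.02. Its log2 ratios were -0.62 and -0.66 for sh-G1 and -0.69 and -0.77 for sh-G2, with a mean of the clones of -0.69 ± 0.06 (SD, n = 2 clones), a 1.61-fold lower signal. The dye-swapped arrays differed by 0.04 and 0.08, far less than those of a typical probe.

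The other RGS5 probe (A_23_P46045) read 8.89, 8.46, 8.96 and 8.64 in the ctrl channels and 7.51, 7.44, 7.59 and 7.54 in the knockdown channels. Again every knockdown value lay below every ctrl value, and the higher ctrl readings were those in Cy3. Its log2 ratios were -1.38 and -1.01 for sh-G1 and -1.37 and -1.10 for sh-G2, with a mean of the clones of -1.21 ± 0.03 (SD, n = 2 clones), a 2.32-fold lower signal. Both probes carry the same accession and agree in direction but not in size, and the smaller ratio came from the brighter probe. In bulk RNA, fewer cells with a transcript and less of it per cell cannot be told apart.

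**Figure D2:**
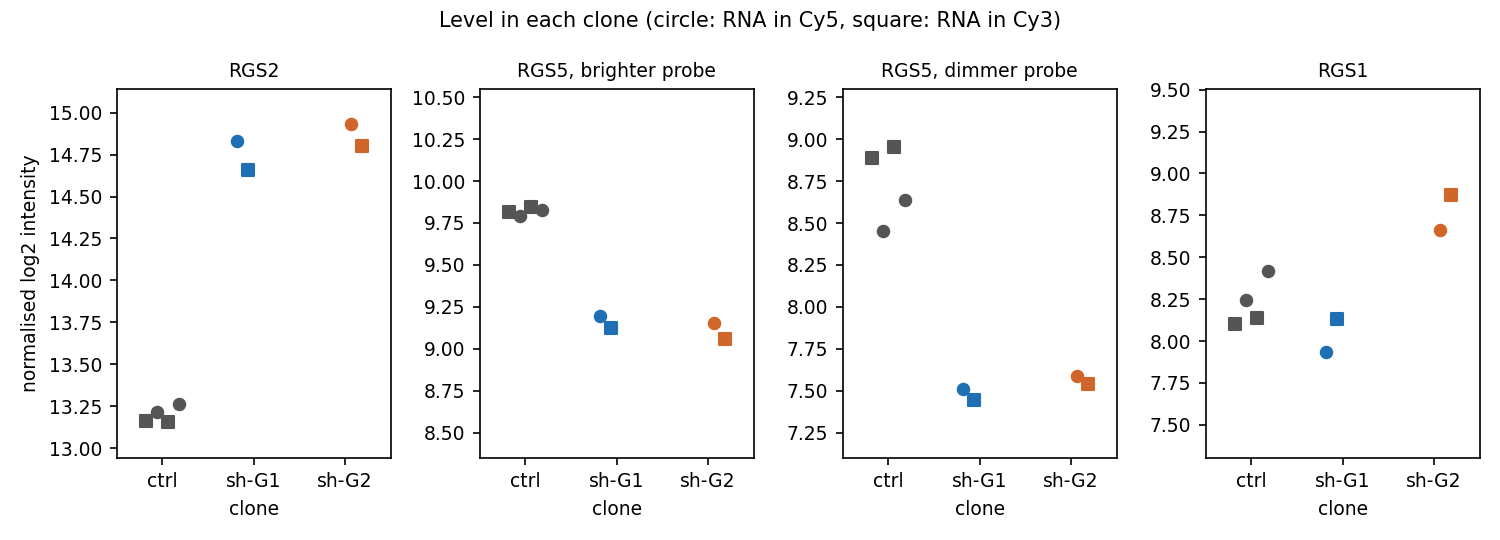
Normalised log2 intensity (vertical axis, with the same span in each panel) of RGS2, both RGS5 probes and RGS1 in the ctrl, sh-G1 and sh-G2 clones (horizontal axis), with 1 point for each channel. The ctrl RNA, from 1 clone, was read on all 4 arrays and each knockdown clone on 2. The ctrl and knockdown points do not overlap for RGS2 and RGS5, while for RGS1 the sh-G2 points alone lie above ctrl. The share of all kept probes that separate in this way was not counted.

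RGS1, an R4 protein best known from lymphocytes, where it damps chemokine receptors, was the one gene of the 10 with both arrays of sh-G1 on one side of ctrl and both of sh-G2 on the other. Its probe (A_23_P97141) gave log2 ratios of -0.17 and -0.11 for sh-G1 and of 0.52 and 0.45 for sh-G2. The ctrl channels read 8.10, 8.24, 8.14 and 8.42, sh-G1 read 7.93 and 8.13, and sh-G2 read 8.66 and 8.87. The sh-G2 readings lay above all ctrl readings, and those of sh-G1 overlapped with them. Between the clones, sh-G2 minus sh-G1 was 0.69 with the knockdown RNA in Cy5 and 0.56 with it in Cy3, a mean of 0.63. The dye-swapped arrays of this probe differed by 0.06 (sh-G1) and 0.07 (sh-G2), so the gap between the clones was larger than that between the arrays of a clone. The mean of the clones, 0.17 ± 0.44 (SD, n = 2 clones), describes neither clone. Since both ratios share the ctrl RNA, the difference between the clones does not rest on it. The share of all kept probes with this pattern of signs, or with so wide a gap between the clones, was not counted.

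RGS3, RGS4 and RGS16 are the remaining R4 genes. RGS3, which acts on G alpha i and G alpha q, had log2 ratios of 0.15 and -0.15 for sh-G1 and -0.14 and -0.08 for sh-G2 on its brighter probe (A_23_P219197), a mean of -0.05. Its other probe (A_24_P377775) was well above background in 1 of 4 knockdown and 2 of 4 ctrl channels and is the only RGS probe that was not kept. RGS4, a regulator of G alpha i and G alpha q known for its rapid breakdown by the proteasome, had log2 ratios of -0.10 and 0.12 for sh-G1 and -0.19 and 0.16 for sh-G2 on 1 probe (A_23_P433855). On its other probe (A_23_P200737) they were -0.13, -0.19, -0.01 and -0.24, a mean of -0.14, and all 4 arrays were below 0. Among the 11 probes of the 8 genes without a 1.5-fold change this was the only one with the same sign on all arrays. How many of all kept probes share a sign on all arrays was not counted.

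RGS16, a regulator of G alpha i and G alpha q, differed with the dye orientation. Its brighter probe (A_23_P320578) gave log2 ratios of -0.57 and -0.61 where the knockdown RNA was in Cy5 and of 0.00 and 0.07 where it was in Cy3, so either orientation alone would have given another picture. The clones themselves were close, with means of -0.29 and -0.27. The other probe (A_23_P217845) gave -0.25 and -0.24 in Cy5 and -0.07 and 0.01 in Cy3, which is the same order at a smaller size.

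The R12 and RZ genes lay near 0 on average. RGS10, an R12 protein that acts on G alpha i and is known from immune cells, had log2 ratios of -0.02 and 0.03 for sh-G1 and 0.16 and 0.15 for sh-G2 (A_23_P138717). RGS17, an RZ protein that acts on G alpha z and G alpha i, had ratios of -0.08, -0.16, -0.04 and 0.24 in the same order (A_23_P156861). RGS20, whose product acts on G alpha z, had ratios of -0.15, 0.04, -0.06 and -0.17 (A_23_P73097). Their means of 0.08, -0.01 and -0.09 were smaller than the median gap between dye-swapped arrays.

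RGS19, known as GAIP for its binding to G alpha i3, gave the widest gap between dye-swapped arrays among the 14 probes. Its probe (A_23_P257014) read -0.69 in sh-G2 with the knockdown RNA in Cy5 and 0.23 with it in Cy3, a gap of 0.92, while sh-G1 gave 0.27 and 0.15. The mean of the clones was -0.01 ± 0.31 (SD, n = 2 clones), and the sign of the sh-G2 ratio depends on which array is used. Over all 11 probes of the 8 genes the means of the clones ran from -0.28 to 0.17 and the single arrays from -0.69 to 0.52. Among the 14 probes the clone means lay furthest apart for RGS1 and RGS19, as the plot of one clone against the other shows.

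**Figure D3:**
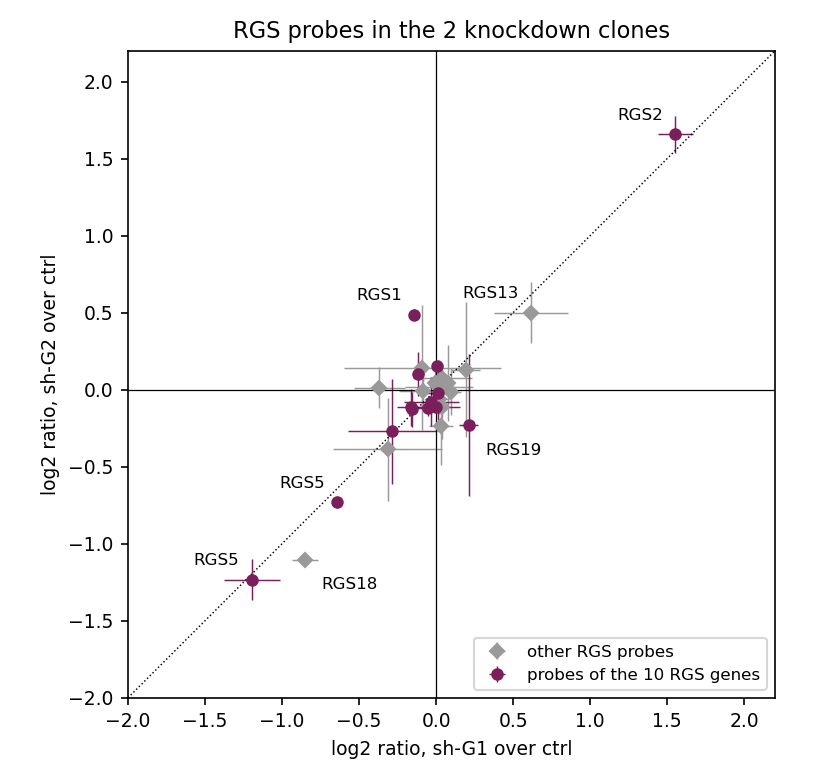
Log2 ratio over ctrl in sh-G1 (horizontal axis) and sh-G2 (vertical axis) for the probes of the 10 RGS genes and of the other RGS genes, each point a clone mean with bars that reach to its dye-swapped arrays; the dotted line marks equal ratios. Both axes share the ctrl clone, so a position near the line is not independent in the clones; RGS1, at -0.14 and 0.49, lies away from it.

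Of 12 other genes of the family, 11 had a probe and 10 had one that was kept. None passed the limma test of the mean of the clones against 0, in which 0.184% of 16882 genes, each by its brightest probe, were called higher and 0.906% lower at an adjusted p of 0.05. At an unadjusted p under 0.05 there were 4, where 15.3% of all genes lay under it, and the smallest adjusted p was 0.055. RGS18, an R4 protein of platelets and their precursors, came closest, with log2 ratios of -0.94 and -0.76 for sh-G1 and -1.07 and -1.13 for sh-G2. It was at least 1.5-fold lower on all 4 arrays with a mean of -0.98 (SE 0.08, limma adjusted p = 0.055), and 8 of 14 alternative settings called it, with adjusted p between 0.00049 and 0.36. RGS13, an R4 protein of germinal-centre B cells and mast cells, had log2 ratios of 0.85, 0.38, 0.70 and 0.30, all above 0 and higher with the knockdown RNA in Cy5. Its mean was 0.56 (SE 0.05, limma adjusted p = 0.064), and 4 of 14 settings called it, with adjusted p between 0.0029 and 0.41.

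The rest of the family lay closer to 0. The R7 genes, whose proteins work with the beta subunit GNB5, had means of -0.02 (RGS6), -0.05 (RGS9) and -0.18 (RGS11), and the probe of RGS7 was not kept. RGS8 had a mean of 0.06, RGS14 of 0.16, RGS22 of 0.02 and RGSL1 of 0.02. RGS12 had 4 probes, with -0.35 on the brightest and -0.10, 0.03 and -0.04 on the others, and RGS21 had no named probe. The median over the 10 measured other RGS genes, each by its brightest probe, was -0.00036, against -0.0037 over all kept probes.

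Of the 10 genes, 5 lie on chromosome 1: RGS1, RGS2, RGS4, RGS5 and RGS16. In the RefSeq gene order, among genes with a kept probe, RGS2 ends a run that starts with RGS18 and goes on with RGS1 and RGS13, and the ratios of this run did not all have the same sign. From RGS18 to RGS2 the means of the clones were -0.98, 0.17, 0.56 and 1.61, so RGS18 was on the low side and RGS2 on the high side within the same run. Further out, PLA2G4A, the cytosolic phospholipase that frees arachidonic acid, was at least 1.5-fold higher on all 4 arrays, with log2 ratios of 0.73, 1.34, 1.96 and 1.54 and a mean of 1.39 (limma adjusted p = 0.13). BRINP3, between them, had a mean of 0.59 (limma adjusted p = 0.090). On the other side of RGS2 the means were 0.34 for UCHL5, 0.08 for RO60, 0.48 for GLRX2, 0.14 for CDC73 and 0.08 for B3GALT2, and of the neighbours tested, which leaves out RGS1, none passed limma.

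RGS5 stands beside RGS4 in the gene order, and the brighter RGS4 probe had a mean of -0.00. The next genes on that side, CCDC190, HSD17B7, DDR2 and UAP1, had means of 0.04, -0.07, 0.13 and 0.19. On the other side NUF2 had a mean of -0.01, LMX1A of -0.01, RXRG of 0.07 and MGST3 of 0.09. RGS4 was not tested, and none of the others passed limma.

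**Figure D4:**
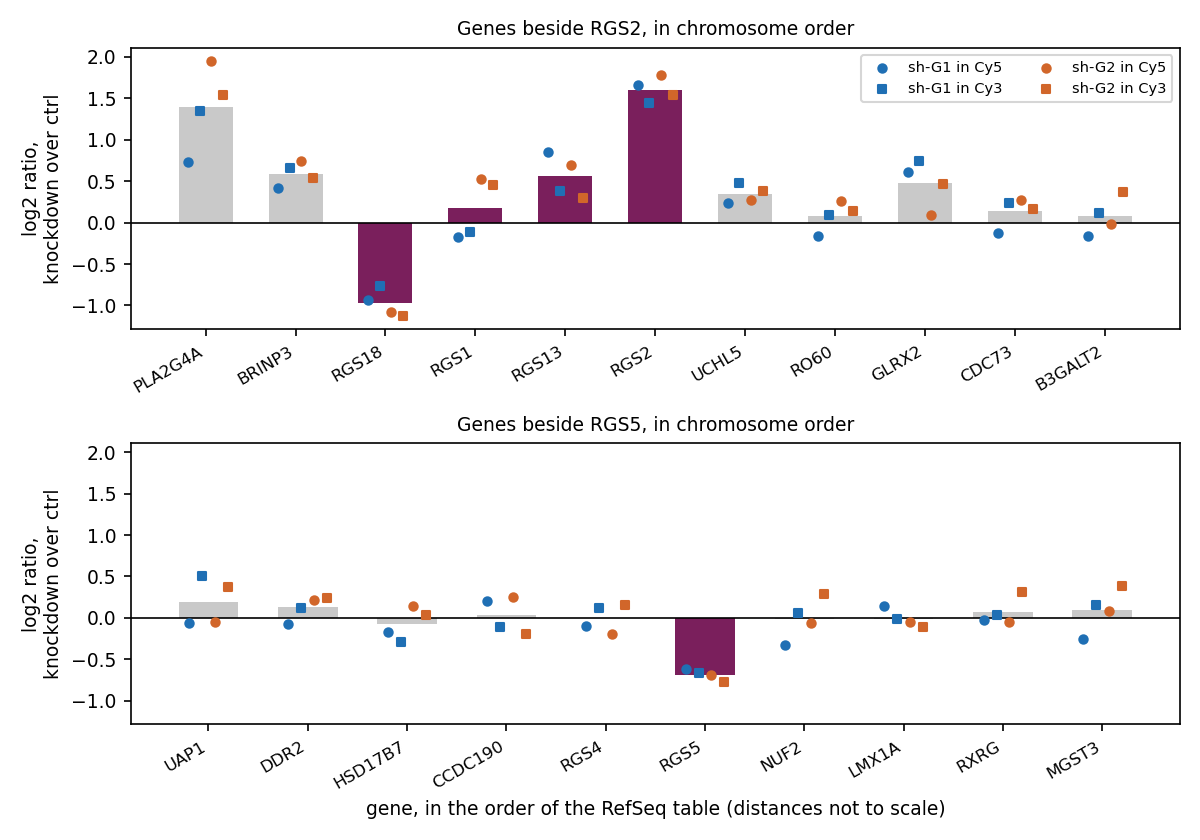
Log2 ratio of knockdown over ctrl (vertical axis) for the 5 genes on each side of RGS2 (upper panel) and the 5 before and 4 after RGS5 (lower panel), each by its brightest kept probe, in the gene order of the RefSeq table (horizontal axis; distances not to scale). Bars are the mean of the 2 clones, points the 4 arrays, and coloured bars are RGS genes other than RGS4, whose bar of -0.00 is too small to see; the means around RGS2 run from -0.98 for RGS18 to 1.61 for RGS2.

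The genes whose 4 ratios lay nearest to those of RGS2, by Euclidean distance over the arrays among 16881 genes, were HOTAIR, a long noncoding RNA of the HOXC cluster (distance 0.29), ARRDC3, an alpha-arrestin (0.37), and PCDH20, a protocadherin (0.46). HOTAIR had log2 ratios of 1.89 and 1.48 for sh-G1 and 1.94 and 1.46 for sh-G2. Nearest to the brighter RGS5 probe were C2CD4C (0.12), GALNT14, another enzyme that starts mucin-type O-glycosylation (0.13), and TRIM48 (0.13). GALNT14 had log2 ratios of -0.53, -0.61, -0.70 and -0.70. These genes were chosen for that likeness over 4 arrays.

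Over 8 lists of G-protein signalling, the other RGS genes included, 2 of 109 measured genes passed the same limma test, both lower (1.83%, where 0.906% of all genes were) and 0 higher (where 0.184% were). Of the G alpha subunits, the targets of RGS proteins, 13 of 16 listed genes were measured, 0 passed (1 at an unadjusted p under 0.05), and the means ran from -0.10 to 0.17. Over all genes, 15.3% had an unadjusted p under 0.05. Of the beta and gamma subunits, 16 of 16 were measured and 0 passed (5 at an unadjusted p under 0.05). Their means ran from -0.82 to 0.59. The lowest was GNG2, a gamma subunit, with log2 ratios of -1.15, -0.23, -1.11 and -0.80 (limma adjusted p = 0.072, called in 6 of 14 settings, adjusted p between 0.00050 and 0.45), and its other probe had a mean of -0.03. Of the receptor kinases and arrestins, which switch receptors off, 10 of 11 were measured and 0 passed (1 unadjusted). That 1 was GRK5, a receptor kinase, with log2 ratios of 0.41, 1.08, 0.41 and 0.97 and a mean of 0.72 (limma adjusted p = 0.055, called in 5 of 14 settings, adjusted p between 0.0022 and 0.36). GNG2 and GRK5 were named after their values were seen. Of the partners of RGS proteins and other proteins with an RGS domain, 7 of 9 were measured and 0 passed (4 unadjusted). Of 9 measured regulators of G alpha outside the family 0 passed, also without adjustment. The medians of these lists ran from -0.06 to 0.08.

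Among the effectors on which G proteins act, 21 of 23 were measured, 1 passed and was lower, and the median was 0.04. This was ADCY1, an adenylyl cyclase stimulated by calcium and calmodulin, with log2 ratios of -0.73 and -0.44 for sh-G1 and -0.71 and -0.44 for sh-G2. Its mean was -0.58 (SE 0.04, limma adjusted p = 0.045), 10 of 14 alternative settings called it, with adjusted p between 0.00085 and 0.29, and its other probe had a mean of 0.02. Among receptors for phospholipids and peptides, 23 of 26 were measured, 1 passed and was lower, and the median was -0.00037. This was CXCR4, the G alpha i-coupled receptor for the chemokine CXCL12, with log2 ratios of -1.80 and -1.83 for sh-G1 and -2.01 and -2.20 for sh-G2. Its mean was -1.96 (SE 0.09, limma adjusted p = 0.024), and 13 of 14 settings called it, with adjusted p between 1.1e-05 and 0.16. None of these lists had a gene that passed in the higher direction. The test leaves out the spread of ctrl, and with ctrl given the spread of the knockdown clones 0 genes passed in either direction, while leaving out 1 array gave between 1 and 2 higher and between 3 and 7 lower.

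**Figure D5:**
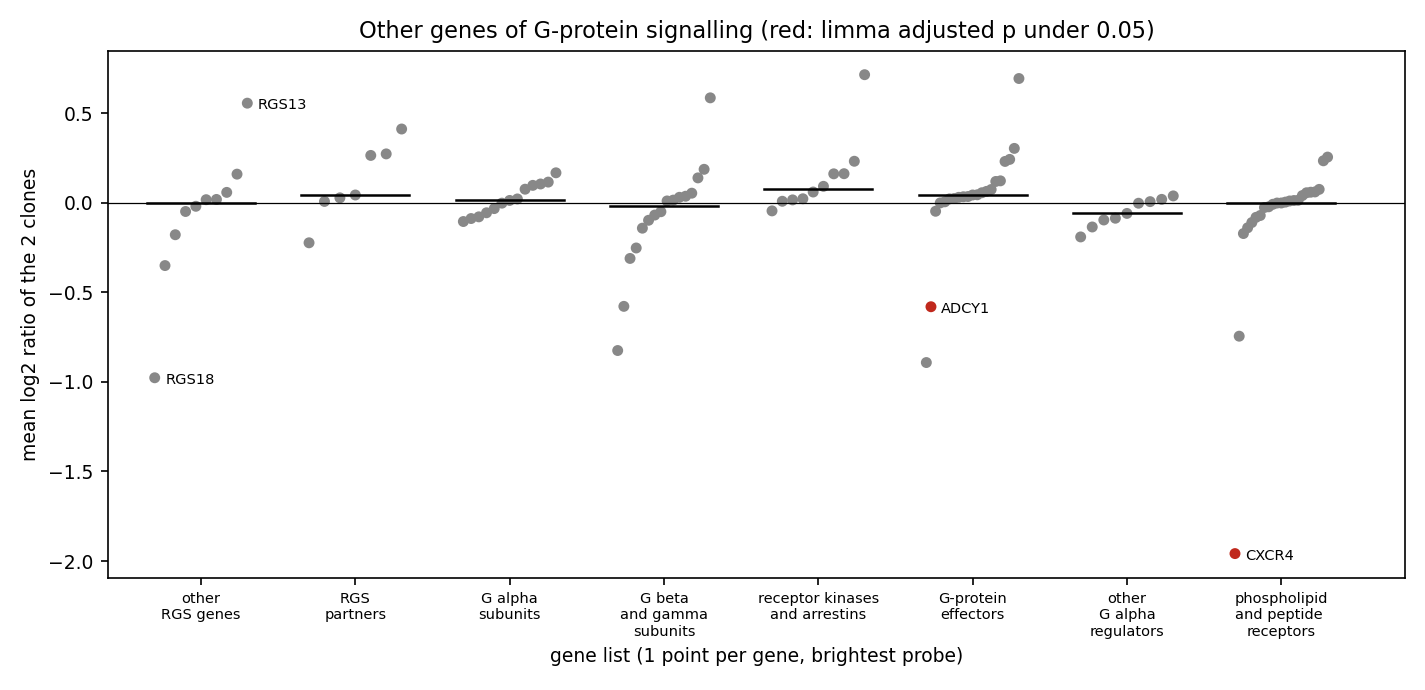
Mean log2 ratio of the 2 clones (vertical axis) for each measured gene of 8 lists of G-protein signalling (horizontal axis), 1 point per gene by its brightest kept probe, with the list's median as a black line. Red points passed limma at an adjusted p under 0.05: CXCR4 at -1.96 and ADCY1 at -0.58; of the others, those of RGS18 and RGS13 alone are named in the plot.

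RGS5 is known from pericytes and RGS1 from lymphocytes, so marker genes of other cell types are given beside them. The summed linear signal of 9 pericyte and fibroblast markers was 34070 to 37332 in the ctrl channels, 5348 to 6063 in sh-G1 and 11254 to 11452 in sh-G2. The median log2 ratio of the list was -0.24, and 6 of the 9 were lower in both clones and 1 higher. Among the 8 epithelial markers given below, 6 were likewise lower in both clones and 1 higher. The share of all genes lower in both clones was not counted. The 9 pool markers of pericytes with markers of fibroblasts, which were not summed apart. Of the 9, DCN and LUM, both extracellular proteoglycans, were the 2 at least 1.5-fold lower on all 4 arrays. Without them, a choice made after their values were seen, the sums were 3809 to 4380 in ctrl, 3908 to 4260 in sh-G1 and 3667 to 3912 in sh-G2, which overlap. For DCN the sh-G1 mean was -4.24 and the sh-G2 mean -2.09 (limma adjusted p = 0.19), and for LUM they were -4.58 and -2.04 (limma adjusted p = 0.22). In the list 0 genes passed the test and 5 had an unadjusted p under 0.05, where 15.3% of all genes did. The summed signal of 7 blood cell markers was 5422 to 6500 in ctrl, 5917 to 6448 in sh-G1 and 5774 to 5897 in sh-G2, overlapping in all clones, and 0 passed, also without adjustment. Of 8 epithelial markers 2 passed, both lower, where 0.906% of all genes were called lower. KRT8 had a mean of -1.03 (limma adjusted p = 0.032) and of -0.45 on its other probe. KRT18 had a mean of -2.32 (limma adjusted p = 0.036). With ctrl given the spread of the knockdown clones, 0 of the epithelial markers passed as lower. The summed signal of the 8 was 16636 to 19376 in ctrl, 7594 to 8434 in sh-G1 and 8274 to 9064 in sh-G2. The list median was -0.04. Without KRT8 and KRT18 the sums of the other 6 overlapped, at 4132 to 5672 in ctrl, 4417 to 5024 in sh-G1 and 4630 to 5119 in sh-G2. On every array 8 of 8 epithelial, 9 of 9 pericyte and fibroblast and 6 of 7 blood markers were well above background in the knockdown channel, so that mark does not tell cell types apart here. The part of these markers in the RGS ratios was not tested.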

How the data were processed

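Total RNA of the sh-G1, sh-G2 and ctrl clones was labelled and hybridised to 4 Agilent arrays of 2 colours. The authors scanned the arrays with Feature Extraction, version 8.5.1.1 per the submitters' processing notes and 10.5.1.1 per the file headers, and deposited spot and background intensity and the log10 ratio of Cy5 over Cy3. The series matrix as deposited holds that log10 ratio for 3 arrays. For the second sh-G1 array the deposited column is a score equal to the software's error of the ratio, and it was not used. The software's p-value of each spot, as deposited, was not used.

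Median spot intensities, without spots marked as outliers, were corrected with normexp (offset 50), normalised with loess and turned to log2 ratios of knockdown over ctrl. Spots of a probe were averaged, and channel levels were scaled with Aquantile. Loess takes most genes as unchanged at each brightness, so a shift of all genes would not be seen. A probe was kept if, on each array, 1 or both channels were well above background, which held for 39151 of 40905. Of 41000 probes, 25398 were named through the RefSeq table of GRCh38.p14 and 15602 kept an accession.

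Both arrays of a clone were averaged, since the sources used here do not say whether they share an RNA extract, leaving n = 2 clones. Precision is limited by the number of arrays. For genes outside the 10, limma 3.58.1 with a trend (R 4.3.3) tested whether the clone average differed from 0, and p-values were adjusted after Benjamini and Hochberg over all probes kept. With 1 ctrl clone, its spread does not enter, and the p-values measure only the spread between these knockdown clones. Random blocks used statmod 1.5.0, and figures matplotlib 3.10.9.

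The genes and lists were chosen with earlier results of these data known. Named were the 10 genes with all probes, the other RGS genes, GALNT3, genes of the other lists past limma or 1.5-fold on all arrays, the 5 nearest genes on each side of RGS2 and RGS5, and the 3 with the nearest ratios. Of these neighbours, 1 is not reported here. Alternatives were other sources of the ratios, background correction, centring, outlier marks, filters, thresholds, probes and units of replication, and each array left out.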

Additional observations from a re-analysis of the deposited data

Results flagged for a closer look

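RGS1 (A_23_P97141) differed between the knockdown clones: sh-G2 minus sh-G1 was 0.63 on the log2 scale, both sh-G1 arrays lay below ctrl (-0.17 and -0.11) and both sh-G2 arrays above it (0.52 and 0.45). The difference was not tested, because the same ratios were known when the gene was listed. The share of all kept probes with such a difference was not counted.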

How the results depend on the processing

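The count of 1 RGS probe higher and 2 lower on all arrays held under every alternative tried except the 2-fold threshold, which left 1 lower, the dimmer RGS5 probe. Over 10 alternatives the mean of the clones ran from 1.55 to 1.67 for RGS2, from -0.79 to -0.67 for the brighter RGS5 probe and from -1.66 to -1.12 for the other, while RGS19 ran from -0.24 to 0.22, RGS17 from -0.08 to 0.16 and the dim RGS3 probe from -0.15 to 0.89.

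No RGS probe was 1.5-fold apart between the clones in both dye orientations. There was 1 with median centring, without background correction, with an offset of 0 or with the software's own ratios, 2 with the Cy5 arrays alone and 3 with the series matrix, which allows the Cy5 orientation only. The RGS1 difference of 0.63 was 0.80 with the software's own ratios, 0.73 with an offset of 0 and 0.90 with the series matrix.

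In the G-protein lists 0 genes were called higher and 2 lower. These became 1 and 5 with the software's own ratios, 3 and 5 with the series matrix, 6 and 8 with the 4 arrays fitted with clone as a random block (correlation -0.66), and from 1 to 2 and from 3 to 7 with 1 array left out: 1 and 3 without sh-G1 replicate 1, 1 and 7 without sh-G1 replicate 2, 2 and 6 without sh-G2 replicate 1, 1 and 4 without sh-G2 replicate 2. The negative correlation lowers the standard errors of the random block fit, so its counts are not a cautious check. That fit also gave the smallest adjusted p quoted for RGS18, RGS13 and ADCY1. Filtering on both channels left 1 lower, and giving ctrl the spread of the knockdown clones left 0 lower. The cause of these differences was not tested. Each ratio already pairs a clone with ctrl within an array, and the array numbers mark the dye orientation, within which the clones were compared.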
